A study of Homo sapiens with 5 samples.

Results

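The genes described here are 50 androgen-response genes outside the best known prostate families such as the kallikreins. They were taken by name from a list of symbols that was drawn up with earlier results of these data known, and the rule applied no threshold to a measured value. All 50 were found in the expression table, as 131 RefSeq accessions, of which 97 were above 0 in at least 1 library. All 50 passed the filter of 1 FPKM (fragments per kilobase of transcript, scaled to library size) in either library, out of 12916 genes that did, 11753 of them protein-coding. The study asked about the lysine demethylase LSD1 in androgen signalling and comprised 5 samples in 5 groups, so no group had a replicate. RNA came from LNCaP cells transfected with a control siRNA or with an siRNA against LSD1. Peak lists came from chromatin immunoprecipitation (ChIP-seq) of LSD1 in LNCaP, of LSD1 in VCaP and in LNCaP of H3T6ph, histone H3 that carries a phosphate on threonine 6, all without transfection. Cells of every group were kept for 3 days without steroid, in 10% charcoal-stripped serum, before a hormone stimulus that the labels do not name. LNCaP and VCaP are prostate cancer lines grown from metastases. The labels name no pair of groups with and without hormone, so the androgen response of these genes was not itself measured here and rests on prior knowledge.

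Androgen signalling reaches genes through the androgen response element, a pair of short half-sites in DNA. Most such elements that are used lie in enhancers far from the gene start. The genes induced in luminal prostate cells serve secretion, glycosylation, polyamine and lipid metabolism, signalling and growth. LSD1 removes methyl groups from histone H3 and has been described both as a corepressor and as a coactivator in androgen signalling. Protein kinase C can phosphorylate H3 at T6, and this mark has been reported to change the substrate choice of LSD1.

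The targeted gene KDM1A, which encodes LSD1, had 37.0 FPKM in the control siRNA library and 6.87 FPKM in the LSD1 siRNA library, or 18.6% of control. All 6 luminal prostate markers were above 1 FPKM in both libraries, with summed levels of 4400 and 3483 FPKM. None of the 4 basal and none of the 3 immune markers reached 1 FPKM, with sums of 0.634 and 0.925 FPKM for the basal list and 0.0357 and 0.0548 FPKM for the immune list. Of the 4 fibroblast, 3 endothelial and 3 neuroendocrine markers 1 each did, with sums of 8.82 and 11.8, 1.99 and 2.51, and 1.08 and 1.11 FPKM. These were COL1A1 (8.77 and 11.7 FPKM), VWF (1.89 and 2.38 FPKM) and SYP (1.05 and 1.07 FPKM), each higher in the LSD1 siRNA library, and their part in the results was not tested. COL1A2, CDH5 and CD3E, markers of fibroblasts, endothelium and T cells, were listed at 0 in both libraries. The LSD1 siRNA library had 77.5% of the depth of the control library, judged from the most frequent ratio of low values, and no read counts were used from which an interval could be given.

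The members were lower as a set in the LSD1 siRNA library. Since their list was drawn up with earlier results of these data known, the shares below are not an independent comparison. Values were below control for 46 of the 50 and above it for 4, against 52.9% lower among all measured protein-coding genes. The median log2 fold change of the members, LSD1 siRNA over control siRNA on the log2(FPKM + 1) scale, was -0.33, and that of all protein-coding genes was -0.01. By a fixed size of 1.5-fold on that scale, 11 members were lower and none was higher. Among all protein-coding genes 1.18% were lower by that much and 1.04% higher. No member passed 2-fold, which 0.128% of protein-coding genes did downward and 0.111% upward. At 5 FPKM or more 47 members were left, of which 43 were lower and 11 lower by 1.5-fold, and none was higher by that much or past 2-fold. Of the protein-coding genes at that level 54.5% were lower, 1.15% lower and 0.8% higher by 1.5-fold, and 0.119% lower and 0.0973% higher by 2-fold. A single library stood for each siRNA, so replicate spread is unknown and no difference has a test here. In such bulk samples fewer cells of a type and less RNA per cell cannot be told apart. Calls in the authors' deposited table covered an accession of 2 members, NCAPD3 and CENPN, both lower, against 0.596% of protein-coding genes with an accession called lower. The calls and q-values of that table rest on the same single library per siRNA, so they do not measure replicate spread.

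**Figure D1:**
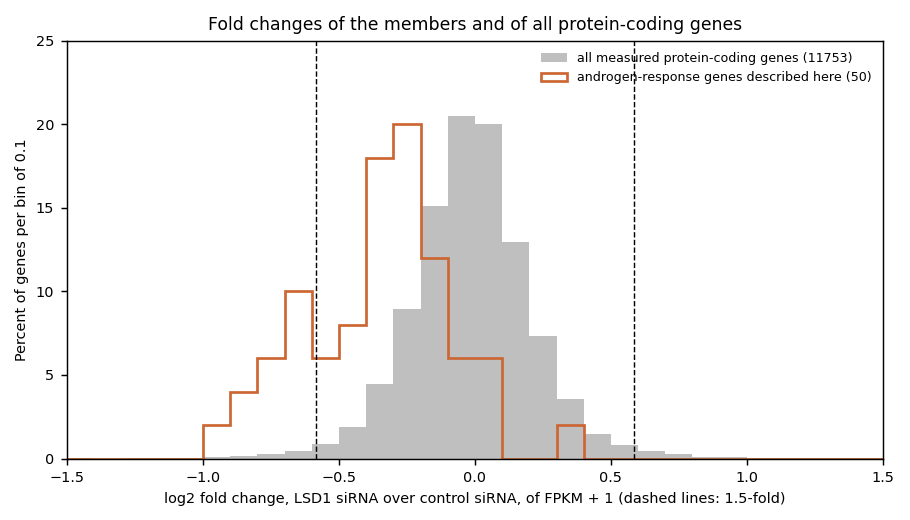
Distribution of log2 fold changes, LSD1 siRNA over control siRNA, of FPKM + 1 on the x axis, with the percent of genes per bin on the y axis, for 11753 protein-coding genes (grey) and the 50 members (line). The members lie to the left of the grey distribution, with 11 of 50 left of the lower 1.5-fold line and none right of the upper one. The 5 genes beyond 1.5 on either side are not shown.

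Of the 4 genes of cell division 3 were lower by 1.5-fold, and the group had the lowest median of the 6 roles, -0.76. In every pair of values below the control siRNA library comes first and the LSD1 siRNA library second. NCAPD3, a subunit of the condensin II complex that compacts chromosomes, was at 124 and 64.4 FPKM (log2 -0.93). On the log2(FPKM + 1) scale this was the lowest fold change of any member and the 20th lowest of 11753 protein-coding genes. Without the added 1 FPKM NCAPD3 was at 52.1% of control, and MYBPC1, a gene of lower level, at 50.2%. The authors' deposited table gives NCAPD3 a q of 0.0113. CENPN, which encodes a kinetochore protein that reads the centromeric nucleosome, was at 157 and 89.2 FPKM (log2 -0.81). For its accession NM_001100624 the authors' deposited table gives a q of 0.0340. MPHOSPH9, a gene of a centriolar protein that restrains cilium formation, was at 24.2 and 14.3 FPKM (log2 -0.71), and its q of 0.0526 in the authors' deposited table was just above 0.05. CCND3, a D-type cyclin gene, was at 20.6 and 22.1 FPKM and thus slightly higher (log2 0.10). The 3 lower genes and the cargo receptor gene LMAN1, described below, had the lowest q of the members in the authors' deposited table. Their upstream windows are shown for that reason, 250 bases that end just before the annotated start, from RefSeq on GRCh38.p14, 5′ to 3′ on the gene's own strand. Capitals mark the CCAAT box or its complement ATTGG. The windows are chr11:134223968-134224217 on the minus strand for NCAPD3, chr16:81006964-81007213 on the plus strand for CENPN, chr12:123233142-123233391 on the minus strand for MPHOSPH9 and chr18:59359266-59359515 on the minus strand for LMAN1.
NCAPD3: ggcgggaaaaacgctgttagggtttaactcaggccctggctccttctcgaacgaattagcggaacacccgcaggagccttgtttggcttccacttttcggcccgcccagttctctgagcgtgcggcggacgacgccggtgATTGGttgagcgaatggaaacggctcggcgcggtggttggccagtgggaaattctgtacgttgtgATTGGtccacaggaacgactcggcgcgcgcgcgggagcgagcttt
CENPN: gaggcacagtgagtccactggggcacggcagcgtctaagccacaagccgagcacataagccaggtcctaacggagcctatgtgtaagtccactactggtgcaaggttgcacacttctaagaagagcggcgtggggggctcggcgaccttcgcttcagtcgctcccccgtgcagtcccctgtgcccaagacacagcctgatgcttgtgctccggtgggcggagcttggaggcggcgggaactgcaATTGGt
MPHOSPH9: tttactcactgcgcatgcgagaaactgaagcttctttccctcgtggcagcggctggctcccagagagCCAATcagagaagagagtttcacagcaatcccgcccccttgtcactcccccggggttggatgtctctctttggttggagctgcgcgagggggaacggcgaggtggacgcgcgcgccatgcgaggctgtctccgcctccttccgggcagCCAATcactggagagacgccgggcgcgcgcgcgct
LMAN1: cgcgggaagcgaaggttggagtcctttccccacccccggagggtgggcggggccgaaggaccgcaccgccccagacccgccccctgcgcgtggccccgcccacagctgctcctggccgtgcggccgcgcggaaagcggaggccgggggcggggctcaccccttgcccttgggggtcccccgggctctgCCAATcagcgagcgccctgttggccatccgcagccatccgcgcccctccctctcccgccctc

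The CCAAT box stood in 39 of 86 windows of the members (45.3%), against 32.0% of all 35116 windows, and 42 of the 50 members had a window. GGGCGG or its complement stood in 44 of 86 member windows (51.2%), against 42.6% of all, and also in the 4 windows shown. For TATAAA this was 12 of 86 (14.0%), against 10.7%. Motifs were chosen after seeing the data. Windows of a gene can overlap, as for DBI and LRIG1, so the same site can count more than once. NCAPD3 had 2 windows, of which 1 held the CCAAT box, and the window shown was taken because it held the box. Both matches of NCAPD3 and MPHOSPH9 and the single matches of CENPN and LMAN1 are descriptions of letters and not of bound sites. None of these 4 windows holds AGAACA or TGTTCT, the half-site of the androgen response element, on either strand. That half-site stood in 7 of 86 member windows (8.14%), against 12.4% of all windows. The windows belonged to IQGAP2, LIFR, MYBPC1, PMEPA1, STK39, TRPM8 and TSC22D1. The full palindrome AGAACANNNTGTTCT was in none of them and in 1 of all 35116 windows.

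Metabolic enzymes and carriers were lower in 13 of 13 members, and their median was -0.53 (log2). SORD, the enzyme that turns sorbitol into fructose, was at 728 and 458 FPKM (log2 -0.67) and had the highest level of the members in the control library. DBI, the acyl-CoA binding protein, was at 582 and 358 FPKM (log2 -0.70), and its main accession had a q of 0.132 in the authors' deposited table. ABHD2, a serine hydrolase, was at 550 and 454 FPKM (log2 -0.28), a smaller difference at a like level. MBOAT2, a lysophospholipid acyltransferase, was at 82.0 and 52.7 FPKM (log2 -0.63).

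NNMT, which methylates nicotinamide, was at 6.61 and 3.68 FPKM (log2 -0.70), the lowest level of the members past 1.5-fold, and with a pseudocount of 5 FPKM its log2 fold change was -0.42 and no longer past it. GNMT, which methylates glycine and thereby uses S-adenosylmethionine, was at 19.7 and 13.0 FPKM (log2 -0.56). SMS, the spermine synthase, was at 174 and 120 FPKM (log2 -0.53). SAT1, the acetyltransferase that starts polyamine breakdown, was at 612 and 496 FPKM (log2 -0.30), the highest level of the members in the LSD1 siRNA library. Neither of these polyamine enzymes passed 1.5-fold. UAP1 and PGM3 are enzymes of the pathway to UDP-N-acetylglucosamine, the donor sugar for glycosylation. UAP1 was at 187 and 126 FPKM (log2 -0.57), just short of 1.5-fold, and PGM3 at 30.8 and 24.1 FPKM (log2 -0.34). ABCC4, an exporter of cyclic nucleotides and organic anions, was at 202 and 155 FPKM (log2 -0.38). HPGD, which inactivates prostaglandins, was at 7.92 and 6.02 FPKM (log2 -0.35), and ALDH1A3, which makes retinoic acid, at 64.7 and 53.4 FPKM (log2 -0.27).

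Genes of the secretory route, trafficking and protein turnover were lower in 6 of 6 members. LMAN1, a lectin that carries glycoproteins from the endoplasmic reticulum to the Golgi, was at 88.4 and 51.7 FPKM (log2 -0.76). The authors' deposited table gives its q as 0.0527. HERC3, a ubiquitin ligase gene, was at 52.1 and 33.4 FPKM (log2 -0.63), and at -0.57, just short of 1.5-fold, with a pseudocount of 5 FPKM. The next values were closer to control. APPBP2, a substrate receptor of a ubiquitin ligase, was at 27.8 and 20.5 FPKM (log2 -0.42). SEC24D, a cargo adaptor of COPII vesicles, was at 21.4 and 17.9 FPKM (log2 -0.24). TPD52, a vesicle trafficking gene, was at 150.4 and 133 FPKM (log2 -0.18), and TMEM50A at 22.5 and 20.3 FPKM (log2 -0.14).

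Receptors, kinases and other signalling genes were lower in 13 of 15 members with a median of -0.26, and 1 of the 15 passed 1.5-fold. This was RHOU, an atypical small GTPase gene, at 72.3 and 45.0 FPKM (log2 -0.67). Of its sum 67.1% with control siRNA came from a noncoding accession, NR_037962, at 48.5 and 26.2 FPKM, while the coding accession NM_021205 was at 23.8 and 18.9 FPKM. LRIG1, a negative regulator of receptor tyrosine kinases, was at 42.9 and 30.1 FPKM (log2 -0.50). STK39, a kinase that controls ion cotransporters, was at 128 and 91.2 FPKM (log2 -0.48). Receptor genes lay nearer to control. BMPR1B, a bone morphogenetic protein receptor, was at 33.0 and 24.8 FPKM (log2 -0.40). LIFR, the leukaemia inhibitory factor receptor, was at 31.5 and 26.2 FPKM (log2 -0.26), and MERTK, a receptor for engulfment signals, at 9.14 and 7.29 FPKM (log2 -0.29). TRPM8, the cold-sensing channel abundant in prostate, was at 10.2 and 7.60 FPKM (log2 -0.38). PMEPA1, an inhibitor of TGF-beta signalling, was at 92.3 and 73.9 FPKM (log2 -0.32).

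CAMKK2, a kinase upstream of AMPK and a well known androgen target, was almost level at 59.4 and 55.9 FPKM (log2 -0.09). TNFAIP8, an inhibitor of apoptosis, was at 27.6 and 27.8 FPKM (log2 0.01), and AKAP12, a scaffold for protein kinases A and C, at 26.2 and 26.9 FPKM (log2 0.04). These were the 2 higher members of the signalling group. The scaffold IQGAP2 was at 8.28 and 6.73 FPKM (log2 -0.26). Low values were found for the kinase MAK (3.05 and 2.63 FPKM), the phosphatase INPP4B (2.95 and 2.68 FPKM) and the phosphatase PTPN21 (2.29 and 1.80 FPKM), the only 3 members under 5 FPKM with control siRNA. With the highest accession alone MAK (log2 0.49), INPP4B (0.01) and CAMKK2 (0.0007) lay above 0, so their direction depends on the accession taken.

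Transcription and chromatin genes were lower in 8 of 9 members, with a median of -0.19, and none passed 1.5-fold. SPDEF, an ETS factor of luminal and secretory cells, was lowest at 97.2 and 70.6 FPKM (log2 -0.46). ELL2, an elongation factor for RNA polymerase II, was at 23.7 and 18.3 FPKM (log2 -0.35). ELK4, an ETS factor that works with serum response factor, was at 22.9 and 18.5 FPKM (log2 -0.29). GREB1, a coactivator of steroid receptors, was at 19.5 and 16.4 FPKM (log2 -0.24). The remaining lower genes were ARID5B at 20.5 and 17.8 FPKM, MAF at 7.55 and 6.50 FPKM, ZMIZ1, a PIAS-like coregulator gene, at 54.7 and 51.5 FPKM, and ZBTB10 at 38.0 and 37.2 FPKM. TSC22D1, a leucine zipper gene induced by TGF-beta, went the other way, at 162 and 207 FPKM (log2 0.35). It was the highest of all members in fold change and still within 1.5-fold. Its less abundant transcript was slightly lower, at 15.4 and 13.7 FPKM. TSC22D1 shares its interval with TSC22D1-AS1, and reads of overlapping genes cannot be told apart here.

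Of the last 3 members, MYBPC1, a myosin-binding protein of slow muscle, was at 11.0 and 5.53 FPKM (log2 -0.88). Its transcripts moved in opposite directions, and the part of the split of reads between them in this sum was not tested. Accession NM_001254723 went from 7.87 to 0.767 FPKM, while NM_206821 went from 1.65 to 4.77 FPKM. In the authors' deposited table the smaller of the p-values of these 2 accessions is 0.493. C1orf116, which encodes an androgen-regulated protein of unknown function, was at 58.6 and 44.2 FPKM (log2 -0.40). PDLIM5, an adaptor between kinases and the cytoskeleton, was at 48.4 and 39.7 FPKM (log2 -0.28).

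**Figure D2:**
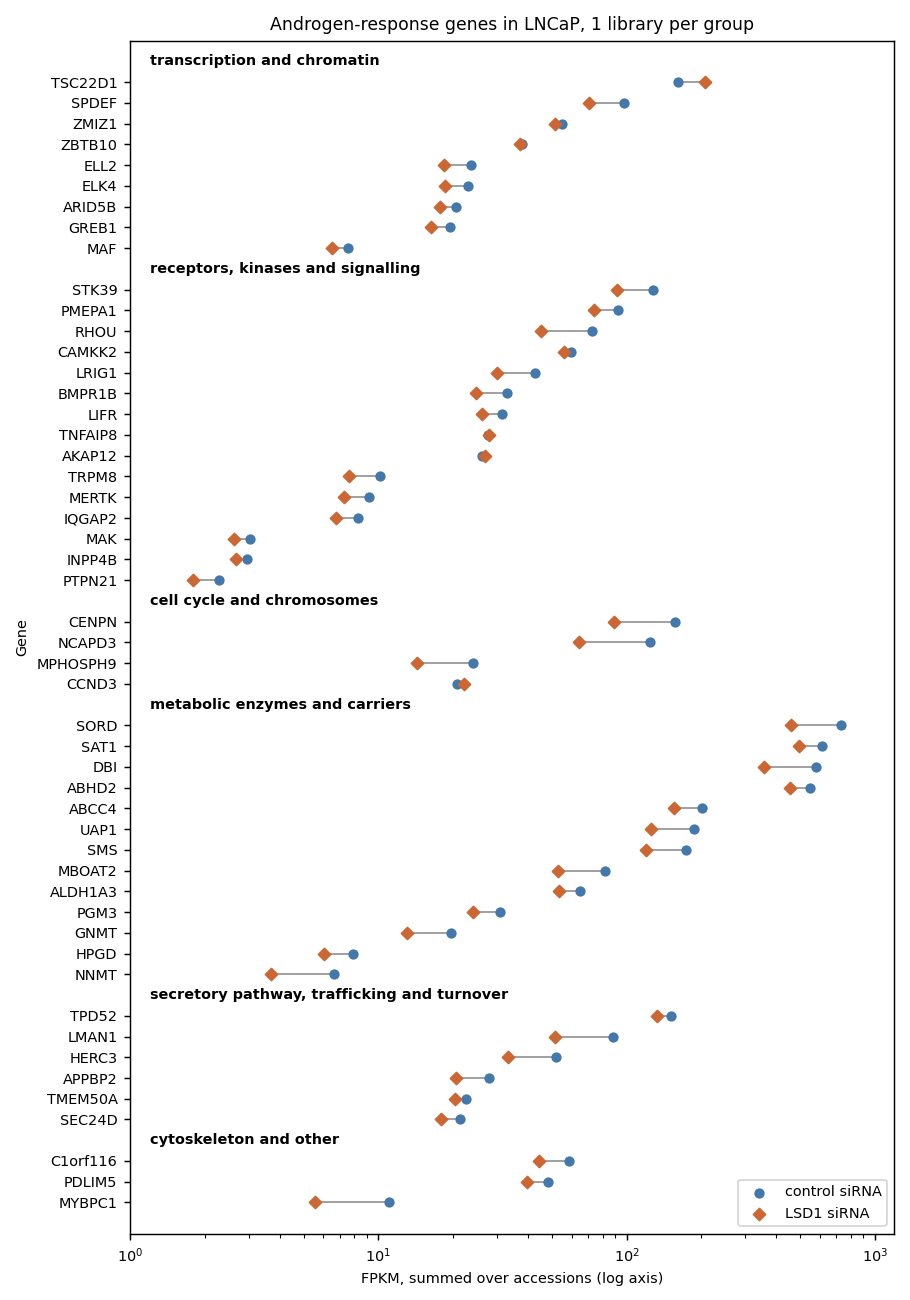
FPKM summed over accessions on a log x axis for each of the 50 members on the y axis, grouped by role, with a circle for the control siRNA library and a diamond for the LSD1 siRNA library. Diamonds lie left of circles for 46 members, and TSC22D1 is the clearest of the 4 with the diamond on the right.

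In several members the difference lay in 1 transcript more than in another, among the 23 members with at least 2 accessions at 1 FPKM or more. CENPN NM_001100624 was at 55.4 and 23.2 FPKM, or 41.8% of control, whereas NM_018455 was at 101 and 66.0 FPKM, or 65.4%. C1orf116 NM_001083924 was at 20.8 and 11.2 FPKM, or 53.9% of control, and NM_023938 at 37.8 and 33.0 FPKM, or 87.3%. For ARID5B the less abundant NM_001244638 was at 5.58 and 3.11 FPKM, and NM_032199 was level at 14.9 and 14.7 FPKM. HPGD showed the same kind of split, with NM_000860 at 3.45 and 1.60 FPKM and NM_001256301 at 4.48 and 4.42 FPKM. TPD52 had 2 transcripts of like level, of which NM_001025252 was at 76.3 and 59.0 FPKM and NM_005079 at 74.0 and 73.8 FPKM. The 4 PMEPA1 transcripts ranged from 70.5% of control for NM_199170 to 99.3% for NM_199171. By contrast both LIFR transcripts were at like shares of control, 81.7 and 84.1%. Values per accession rest on the authors' split of shared reads, and CENPN NM_001100624 was the only accession of these genes called in the authors' deposited table.

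**Figure D3:**
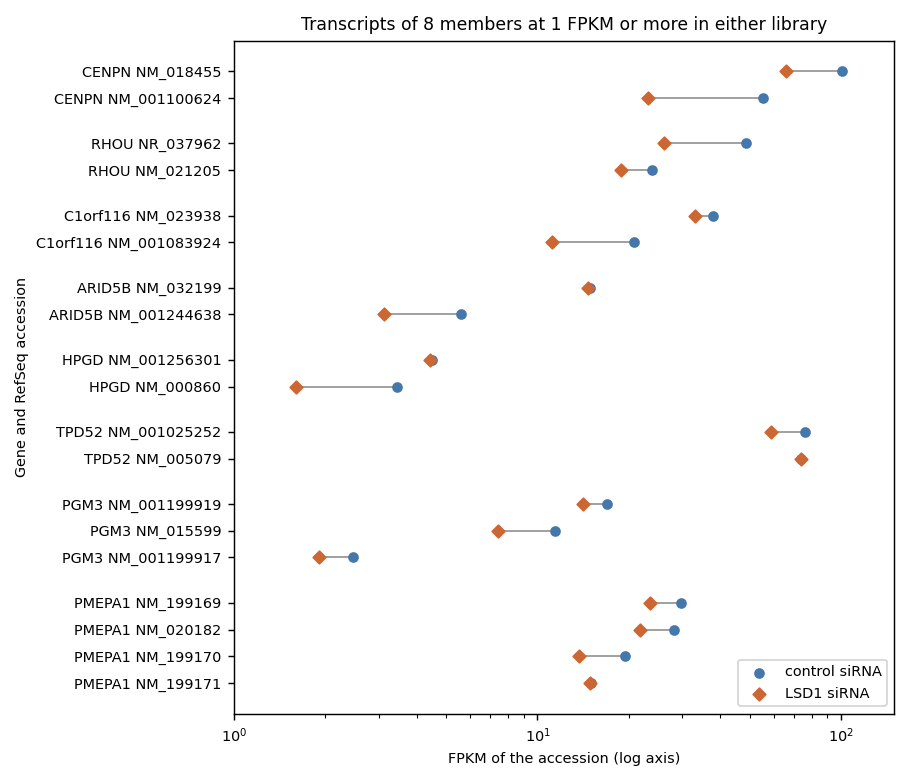
FPKM of single RefSeq accessions on a log x axis for 8 members, with a circle for control siRNA and a diamond for LSD1 siRNA. In ARID5B, HPGD and TPD52 the markers of 1 accession nearly coincide while those of another are apart.

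The list of other androgen-response genes, 60 of 61 of them measured, gives the wider pathway. Of these 48 were lower and 12 higher, 7 were lower and 1 higher by 1.5-fold, and the median was -0.25 (log2). Among all protein-coding genes 52.9% were lower, 1.18% lower and 1.04% higher by 1.5-fold, and the median was -0.01. This list too was chosen with earlier results of these data known. The other androgen-response genes include STEAP4 (log2 -1.63) and FKBP5 (-0.72) on the low side and KRT19 (0.75) and SRF (0.36) on the high side. KLK3 and TMPRSS2 were at -0.35 and -0.36, close to the members' median.

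Peaks were then placed by their distance to the gene interval, the span of hg19 that the expression table gives for a gene. An interval can cover overlapping transcripts, and 12 members share theirs with another symbol, among them CENPN (with CMC2), RHOU (with DUSP5P1) and HERC3 (with NAP1L5) of those past 1.5-fold. Whether a peak lies in an exon or an intron was not analysed here. An LNCaP LSD1 peak lay within 20 kb of 29 of the 50 members (58.0%), against 42.6% of protein-coding genes. A VCaP LSD1 peak lay there for 28 (56.0%), against 42.4%, and an H3T6ph peak for 17 (34.0%), against 18.2%. The members have long intervals, with a median of 90.0 kb against 33.0 kb for protein-coding genes. Among intervals of 50 kb or more the shares were 22 of 37 members (59.5%) against 58.8% for LNCaP LSD1, 22 of 37 (59.5%) against 52.2% for VCaP LSD1 and 13 of 37 (35.1%) against 27.3% for H3T6ph. At this length the members' share for LNCaP LSD1 lay near that of all genes, and the other lists' shares lay above it by less than over all lengths. Without the 12 members that share an interval the shares were 20 of 38 (52.6%) for LNCaP LSD1, 18 of 38 (47.4%) for VCaP LSD1 and 15 of 38 (39.5%) for H3T6ph. Those of protein-coding genes with an interval of their own were 39.9, 39.8 and 17.2% in the same order. With as many top-scoring peaks from each list as the shortest has, 14 members had an LNCaP LSD1 peak nearby and 20 a VCaP LSD1 peak. With only the peaks above each list's median score these were 17 and 21. The order of the LSD1 lists among the members thus depends on which peaks are kept. Shares of all protein-coding genes with these shortened lists were not counted.

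All 3 lists had a peak near 8 members, namely ABHD2, ALDH1A3, BMPR1B, C1orf116, LIFR, MERTK, MYBPC1 and NNMT, or 16.0% of members against 7.37% of protein-coding genes. Among intervals of 50 kb or more the share was 5 of 37 members (13.5%) against 13.8%, near that of all genes. No list had one near 8 others, namely DBI, HPGD, LMAN1, MAK, PMEPA1, SAT1, SEC24D and SORD, or 16.0% against 33.6% of protein-coding genes. Among intervals of 50 kb or more this was 4 of 37 members (10.8%) against 20.5%. The 8 members with no peak nearby were all lower, 3 of them past 1.5-fold, and their median was -0.33. The closest peak of LNCaP LSD1 lay 92.5 kb from LMAN1, 169 kb from SORD and 28.7 kb from DBI. SAT1 was just outside the limit at 20.3 kb. Members with an LNCaP LSD1 peak nearby had a median of -0.38 over 29 genes, and those without one -0.30 over 21. Over the 4958 protein-coding genes with such a peak the median was -0.01. Whether a nearby peak bears on the fold change was not tested. The 17 members with an H3T6ph peak had a median of -0.28 and the 33 without one -0.35.

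**Figure D4:**
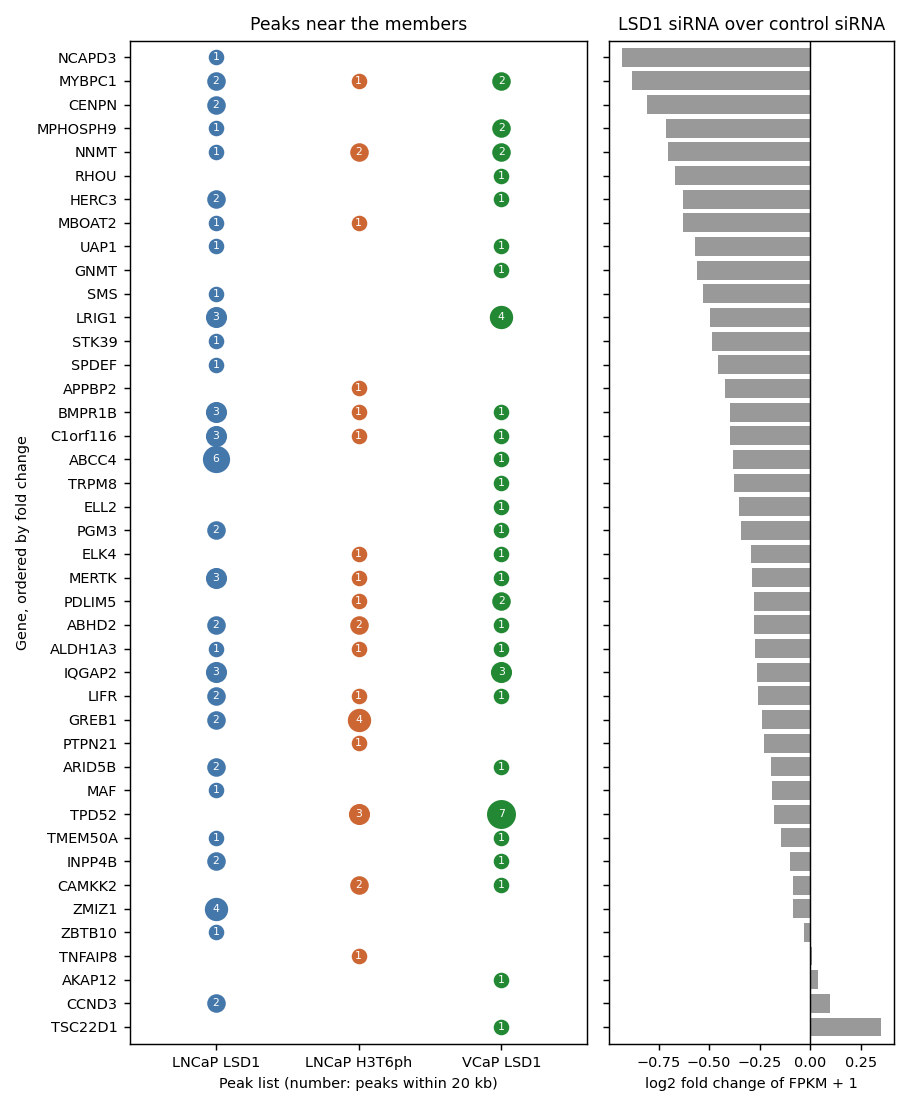
Number of peaks within 20 kb of each of 42 members in the 3 lists (left, circle size and number) beside the log2 fold change of FPKM + 1 (right, bars), with genes in order of fold change on the y axis. LSD1 peaks stand beside genes at both ends of the order, H3T6ph peaks from MYBPC1 to TNFAIP8, and TPD52 has the most VCaP LSD1 peaks, 7.

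Peaks of different lists met at the same place near a number of members, where the authors' score for each peak is its own value within its list. Such meeting places, of all 3 lists or of pairs of lists, were not counted for other protein-coding genes. Whether they are more frequent near members than near other genes of like length was therefore not tested. A site of all 3 lists was found at ALDH1A3, C1orf116, MYBPC1 and NNMT. At ALDH1A3 (chromosome 15, 101420009 to 101456830) it lay in the middle of the interval, with the H3T6ph peak at 101437958 to 101438475 (score 86.2) inside both LSD1 peaks. At MYBPC1 (chromosome 12, 101988709 to 102079658) the LNCaP LSD1 peak at 102001757 to 102003136 had a score of 118, rank 805 of 11673. There the VCaP LSD1 peak lay at 102001929 to 102003108 and the H3T6ph peak at 102002196 to 102002723. Near NNMT (chromosome 11, 114166535 to 114183238) the site lay 2.95 to 3.30 kb past the high-coordinate end, with an LNCaP LSD1 peak at 114186190 to 114187341 (score 125). A second place, inside the NNMT interval, held H3T6ph and VCaP LSD1 but no LNCaP LSD1 peak. At C1orf116 (chromosome 1, 207191866 to 207206101) the site lay about 13 kb below the low-coordinate end. It held the VCaP LSD1 peak at 207178001 to 207179018, rank 547 of 9854.

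MYBPC1 and LIFR had peaks of all 3 lists nearby and an androgen response half-site just upstream of an annotated start, so their windows are shown. They are chr12:101594721-101594970 on the plus strand for MYBPC1 and chr5:38557468-38557717 on the minus strand for LIFR, 1 of 3 LIFR windows, on GRCh38.p14 from RefSeq. Capitals mark TGTTCT at bases -192 to -187 of MYBPC1 and AGAACA at -8 to -3 of LIFR, counted back from -1, the last base before the start.
MYBPC1: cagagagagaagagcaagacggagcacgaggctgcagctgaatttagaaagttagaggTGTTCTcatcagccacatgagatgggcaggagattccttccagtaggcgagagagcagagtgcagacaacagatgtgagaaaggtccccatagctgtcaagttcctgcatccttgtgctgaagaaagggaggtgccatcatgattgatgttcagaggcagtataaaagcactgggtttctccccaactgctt
LIFR: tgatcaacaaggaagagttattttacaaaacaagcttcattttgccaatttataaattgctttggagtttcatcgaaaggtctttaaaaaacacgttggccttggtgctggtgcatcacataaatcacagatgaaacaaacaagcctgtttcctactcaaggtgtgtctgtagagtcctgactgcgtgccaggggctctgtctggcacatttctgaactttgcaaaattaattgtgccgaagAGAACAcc

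No comparison of these windows with the peaks was made, since the peaks are on hg19.

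Pairs of lists met near other members. LNCaP LSD1 and H3T6ph met at GREB1 and MBOAT2, with no VCaP LSD1 peak within 20 kb of either. The H3T6ph peak of GREB1, at chromosome 2, 11679441 to 11680282, had a score of 212 and rank 77 of 4460, the highest of any H3T6ph peak near a member. GREB1 had 3 further H3T6ph peaks nearby, at 11711250 to 11711870 inside its interval and at 1.27 and 2.65 kb below it. At MBOAT2 the H3T6ph peak (chromosome 2, 9141149 to 9141712) lay within the LNCaP LSD1 peak (9140959 to 9142028), close to the end of the interval where the gene starts. H3T6ph met VCaP LSD1 without LNCaP LSD1 inside the intervals of ABHD2, NNMT and TPD52 and outside those of CAMKK2 and PDLIM5. The CAMKK2 site lay 1.63 to 1.64 kb and the PDLIM5 site 11.9 kb past the high-coordinate end. TPD52 had the most VCaP LSD1 peaks of the members, 7, of which 1 lay 4.04 kb below its interval of 137 kb. It also had 3 H3T6ph peaks, each met by a VCaP LSD1 peak, and no LNCaP LSD1 peak within 20 kb. The strongest of these meeting places held an H3T6ph peak of score 148 and a VCaP LSD1 peak of score 111. The lowest VCaP LSD1 score there was 51.8, rank 8682 of 9854. Peak numbers of other genes of like length were not counted. LSD1 peaks of both lines met without H3T6ph inside the intervals of ARID5B and IQGAP2 and outside that of PGM3. The PGM3 site lay 15.2 to 15.3 kb below the low-coordinate end, within the interval of UBE3D. Its LNCaP LSD1 peak had rank 11601 of 11673. PGM3 itself shares its interval with DOP1A and RWDD2A.

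**Figure D5:**
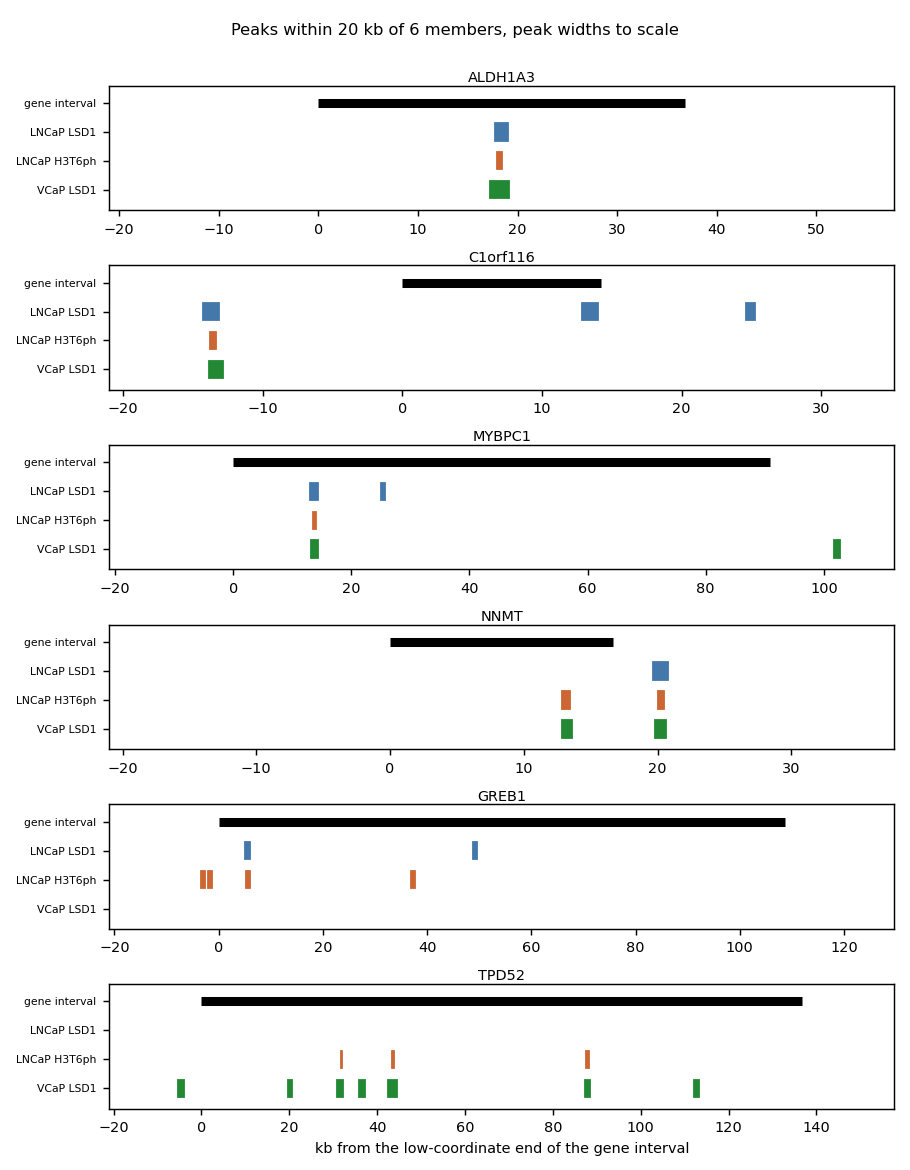
Positions of peaks in the 3 lists along 6 members, with x in kb counted from where the gene interval (black bar) begins on the chromosome, with peak widths to scale. At ALDH1A3, C1orf116, MYBPC1 and NNMT peaks of the 3 lists share a place, GREB1 has no VCaP LSD1 peak and TPD52 no LNCaP LSD1 peak.

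Of 31 members with a RefSeq strand and an interval of their own, 7 (22.6%) had a peak of any list within 3 kb of the end where the gene starts. This was close to the 23.1% of protein-coding genes placed in the same way. LNCaP LSD1 peaks did so at C1orf116 (0.260 kb from that end), NCAPD3 (0.778 kb), MBOAT2 (1.85 kb) and CCND3 (2.66 kb). The NCAPD3 peak, at chromosome 11, 134095204 to 134095782, lies within the interval of the neighbouring gene VPS26B and had a low score for its list, 56.5 at rank 8979 of 11673. H3T6ph peaks did so at APPBP2 (0.148 kb), CAMKK2 (1.63 kb) and MBOAT2 (2.16 kb), and VCaP LSD1 peaks at ELK4 (0.226 kb) and CAMKK2 (1.64 kb). At CENPN an LNCaP LSD1 peak (chromosome 16, 81007300 to 81008263, score 95.6) lay 1.44 kb below the interval. CENPN shares that interval with CMC2, so the distance need not be to CENPN itself. The highest LNCaP LSD1 score near a member was 131, at ZMIZ1 (chromosome 10, 80846343 to 80847325, rank 540), a gene whose level was near control. ABCC4 had the most LNCaP LSD1 peaks, 6, all inside its interval.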

How the data were processed

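RNA-seq of 2 LNCaP libraries and 3 ChIP-seq peak lists were used, with 1 sample per group. The FPKM values were deposited by the authors, 1 per RefSeq accession and library, and the columns are those Cuffdiff writes, per the file headers. The p-value and q-value of each accession are those of the authors' deposited table. Each peak carries a score deposited by the authors, whose scale is not given in the sources used here. Cuffdiff 2.0.1, TopHat2 2.0.4, Bowtie2 2.0.0, MACS2 and hg19 are listed in the submitters' processing notes. Library scaling and ChIP controls are not stated there, and depth is known only relative between the RNA libraries (1313 genes with low values).

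Of 40253 accessions 96.7% were matched to symbols through RefSeq (GRCh38.p14). FPKM was summed per symbol with Python 3.11.15 and pandas 2.3.3, and 42 genes with a failed accession were left out. Fold changes are of FPKM + 1, which understates low genes. Peaks within 20 kb of an interval were counted. The TruSeq v2 kit, per the labels' protocols, keeps no strand, so reads of overlapping genes cannot be told apart. The steps were tested on simulated data. Named were all members, with KDM1A, KLK3, FKBP5, TMPRSS2 and the largest changes of the other androgen list, of which some are not reported here. Members and lists were chosen with earlier results of these data known. Motifs, the 3 kb and 50 kb limits and the transcripts plotted were chosen after seeing the data. Alternatives were the pseudocount, the filter, the highest accession alone, the scaling, the peak distance and the peak score.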

Additional observations from a re-analysis of the deposited data

How the results depend on the processing

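The 11 members lower by 1.5-fold became 9 to 12, the 46 lower ones 43 to 46 and the median -0.35 to -0.29, all within 1.5 times of the values above, under a pseudocount of 0.1 or 5 FPKM, no filter, a filter of 5 FPKM, the highest accession alone and scaling to the protein-coding median. With only the peaks above the list's median score, the members near an LNCaP LSD1 peak were 17 and those near a VCaP LSD1 peak 21. With as many peaks as the shortest list has they were 14 and 20, in both cases with fewer peaks by construction. At distances of 0 to 50 kb the members with a peak nearby were 20 to 34 for LNCaP LSD1, 21 to 34 for VCaP LSD1 and 14 to 25 for H3T6ph. Under the changed peak lists and distances only members were counted, without the shares of all protein-coding genes. Without the 12 members that share an interval, an alternative added after seeing the data, 18 of 38 had a VCaP LSD1 peak nearby, a larger loss than that of genes, and the cause was not tested. Of 200 log2 fold changes of single members under these settings, 16 differed by over 1.5 times or changed sign, and no member past 1.5-fold changed sign. With the highest accession alone HPGD was at -0.02, C1orf116 at -0.19 and MYBPC1 at -2.33. Leaving out a replicate was not possible with 1 sample per group. No paired analysis was possible because each group holds 1 sample. Depth limits MAK, INPP4B and PTPN21 most.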

Other observations

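Some accessions of members were listed at 0 in 1 library. MAK NM_001242385 was at 1.06 FPKM with control siRNA and listed at 0 with LSD1 siRNA, while MAK NM_005906 was at 1.09 and 1.95 FPKM. The p-value of the former in the authors' deposited table is 0.00342 and its q is 0.207. Of the minor DBI accessions NM_001178042 was at 18.5 and 7.17 FPKM and NM_001178043 at 1.42 and 4.53 FPKM, beside a main accession, NM_001079862, at 556 and 344 FPKM.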
